A study of Mus musculus with 10 samples.

Results

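The staircase of actin-filled protrusions on top of a hair cell (HC), the stereocilia, is built from 2 cytoplasmic actins and from proteins that tie actin filaments together, stop or start their growth and anchor them in the cell. Described here are 10 genes of this actin core in the inner ear of old mice: the actins Actb and Actg1, the crosslinkers and bundlers Espn, Espnl, Fscn2, Pls1 and Triobp, the actin-binding repeat protein Xirp2, and the tip proteins Eps8 and Eps8l2. The rule that names them uses gene symbols and no measured value, and all 10 were found among the 32285 genes of the count tables. The libraries come from wild-type CBA/J mice aged 22 months, with no treatment, and the study used both sexes. Cells of the whole cochlea or the whole vestibular organs of several pooled mice went into each single-cell library, so that a library is the replicate and single animals cannot be told apart. Replicates 1, 3, 4 and 5 of each organ were used (n = 4), as replicate 2 held the same cells as replicate 1, and every set of 4 values below is given in that order.

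A stereocilium is held stiff by a paracrystal of parallel actin filaments whose fast-growing ends point to the tip, and at its base the filaments narrow into a rootlet that enters the cuticular plate. The cochlea uses these bundles to detect sound, with inner hair cells (IHCs) as the sensory cells and outer hair cells (OHCs) as amplifiers, and the vestibular organs use type I and type II HCs to detect head movement. Bundles of vestibular HCs are usually taller than those of cochlear HCs. Beta-actin is encoded by Actb (chr5:142903115-142906754, minus strand, GRCm38) and gamma-actin, the other cytoplasmic actin, by Actg1 (chr11:120345690-120348542, minus strand). Espin, from Espn (chr4:152120331-152152371, minus strand), is a filament bundler whose loss causes deafness and vestibular dysfunction in mice, and Espnl (chr1:91322075-91348306, plus strand) encodes its smaller relative espin-like. Fascin 2, from Fscn2 (chr11:120361534-120368168, plus strand), and plastin 1 or fimbrin, from Pls1 (chr9:95752642-95845311, minus strand), are further crosslinkers of parallel filaments. Triobp (chr15:78947724-79005869, plus strand) gives isoforms that wrap the filaments of the rootlet. Xirp2 (chr2:67446002-67526614, plus strand) encodes a long actin-binding protein with Xin repeats that is needed to maintain and repair stereocilia. Eps8 (chr6:137477245-137654876, minus strand) encodes a capping and bundling protein carried to the tips of the tallest stereocilia, and its relative Eps8l2 (chr7:141338880-141363020, plus strand) is also a tip protein. The libraries count the 3′ ends of transcripts, so splice forms of Espn, Xirp2 or Triobp cannot be told apart, and levels are compared within a gene and not between genes.

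Promoters are shown for Espnl, Xirp2 and Espn, 3 of the members called lower in cochlear than in vestibular HCs, and for Fscn2 and Actg1, which lie 13.0 kb apart on chromosome 11 with 1 annotated gene between them and of which Fscn2 was higher and Actg1 lower in HCs than in supporting cells (below). Each sequence runs 5′ to 3′ on the strand of the gene, from 250 bases before to 50 bases after the transcription start site in RefSeq (GRCm38.p6), where 8 of the 10 genes had an entry, Actb and Eps8 being the others. Capitals mark a match to CAGNTG (a class of E-box that Atoh1 and other basic helix-loop-helix factors bind), to GTTGCC (the core of the X-box bound by RFX factors), to TATAAA (the TATA box) or to the CArG box bound by serum response factor, each searched on both strands and none overlapping another.
Espnl, chr1:91321825-91322124, plus strand: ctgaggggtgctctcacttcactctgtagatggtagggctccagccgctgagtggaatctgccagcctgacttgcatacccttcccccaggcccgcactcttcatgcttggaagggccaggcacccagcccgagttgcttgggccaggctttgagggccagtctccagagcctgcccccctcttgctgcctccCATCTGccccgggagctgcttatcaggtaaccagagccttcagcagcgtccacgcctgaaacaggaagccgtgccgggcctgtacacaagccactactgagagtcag
Xirp2, chr2:67445752-67446051, plus strand: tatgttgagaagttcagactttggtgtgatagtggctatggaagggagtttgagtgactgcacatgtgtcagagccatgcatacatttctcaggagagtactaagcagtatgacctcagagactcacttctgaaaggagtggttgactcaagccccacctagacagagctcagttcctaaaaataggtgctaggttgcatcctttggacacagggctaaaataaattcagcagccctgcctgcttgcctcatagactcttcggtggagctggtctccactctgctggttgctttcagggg
Espn, chr4:152152340-152152639, minus strand: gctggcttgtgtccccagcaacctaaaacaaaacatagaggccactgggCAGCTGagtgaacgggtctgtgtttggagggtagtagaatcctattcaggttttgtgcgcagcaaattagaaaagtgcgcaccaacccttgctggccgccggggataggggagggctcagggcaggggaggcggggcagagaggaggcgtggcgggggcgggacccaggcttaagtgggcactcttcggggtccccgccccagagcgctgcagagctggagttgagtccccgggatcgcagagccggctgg
Fscn2, chr11:120361284-120361583, plus strand: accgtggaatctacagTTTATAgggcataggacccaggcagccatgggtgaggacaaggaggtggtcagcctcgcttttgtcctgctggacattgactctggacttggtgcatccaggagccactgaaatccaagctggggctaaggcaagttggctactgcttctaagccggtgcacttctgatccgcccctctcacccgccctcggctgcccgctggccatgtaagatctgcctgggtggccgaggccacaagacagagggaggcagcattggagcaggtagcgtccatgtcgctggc
Actg1, chr11:120348446-120348745, minus strand: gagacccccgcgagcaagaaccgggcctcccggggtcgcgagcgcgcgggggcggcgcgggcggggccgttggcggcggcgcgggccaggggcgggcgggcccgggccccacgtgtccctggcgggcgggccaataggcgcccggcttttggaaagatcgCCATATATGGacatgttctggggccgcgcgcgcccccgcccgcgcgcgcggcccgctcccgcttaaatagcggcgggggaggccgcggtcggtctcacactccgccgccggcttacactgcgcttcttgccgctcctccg
The CAGNTG matches of Espn and Espnl lie 201 and 57 bases before the start site, the TATAAA match of Fscn2 lies 234 bases before it and on the other strand, and the CArG box of Actg1 lies 90 bases before it. The Espn window shown is that of start site 1 of 3. The window of start site 2 held no motif, and that of start site 3 held CAGNTG 208, 126 and 78 bases before its start. No motif was found in the Xirp2 window. CAGNTG was held by 6 of the 11 windows of the members (some genes have several start sites) against 51.4% of 32851 mouse promoters of the same length, TATAAA by 1 against 13.6%, the CArG box by 1 against 1.63%, and GTTGCC by 0 against 12.5%. These matches are descriptions of the letters in a window and were not tested for binding.

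The libraries held 2738036 to 26974948 unique molecular identifiers (UMIs, each counted once per captured transcript) in the cochlea and 4150642 to 24104850 in the vestibule, and 571 to 5070 and 867 to 5438 cells passed the limits on quality. Clusters were named from marker genes, with the 10 members and their relatives left out of the genes used for clustering, and a class is HC-like, type I-like and so on because its name rests on markers (written HC, type I and so on from here). The 153 cochlear HC-like cells (cHCs) numbered 26, 81, 14 and 32 in the 4 libraries, and the 1777 vestibular HC-like cells (vHCs) 199, 798, 473 and 307. Their median depth was 3463 and 4045 UMIs per cell. Of the 2 markers that split the cHCs, Slc26a5 (prestin) had a UMI in 83.3% of the 78 OHC-like cells and 1.33% of the 75 IHC-like cells. Slc17a8 had a UMI in 7.69% and 74.7%, and Otof (otoferlin), a further IHC marker, in 20.5% and 98.7%. For the vHCs, Adam11 was found in 92.2% of the 1494 type I-like and 6.36% of the 283 type II-like cells, and Sox2 in 1.34% and 78.4%. OHCs made up 92.3% of the cHCs of replicate 1 and 39.5% to 57.1% of those of the others, so that the mix behind a cochlear value differs between libraries. These are shares of cells, while a level rests on summed UMIs, to which deeper cells give more. The median depth was 2644 UMIs per OHC and 5693 per IHC. Set aside were 501 vestibular and 69 cochlear cells in clusters that carried HC markers together with markers of supporting or other cells.

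Across the 45 classes and clusters with enough cells in at least 3 libraries, the genes fell into a group led by HCs and a group that was not. Levels are UMIs of a gene per 1000000 UMIs of all cells of a class in a library (CPM), as mean ± SD over libraries. Espn was highest in non-striolar type I HCs at 2663 ± 437 CPM and striolar type I HCs at 2325 ± 111 CPM, which overlapped, followed without overlap by OHCs at 1389 ± 389 CPM and type II HCs at 1323 ± 182 CPM, whose ranges overlapped. No class outside the HCs was above 132 CPM for Espn. Xirp2 had the same leader, at 1605 ± 159.9 CPM against 1029.8 ± 57.8 CPM in striolar type I and 845 ± 61.1 CPM in type II HCs, and each of these ranges stood clear of the next down to type II HCs. Espnl was led by striolar type I HCs at 332 ± 90.6 CPM and stayed at or below 13.9 CPM in each of the 38 classes that are not HCs. Fscn2 lay close together in IHCs (259.9 ± 44.5 CPM), non-striolar type I HCs (235 ± 33.7 CPM), OHCs (229 ± 37.3 CPM) and striolar type I HCs (225 ± 10.8 CPM), with overlapping ranges. The Triobp order began with non-striolar type I HCs at 486 ± 74.5 CPM, and Eps8l2 was led by OHCs at 239 ± 60.8 CPM and IHCs at 184 ± 10.0 CPM. HC classes, including the cells set aside as mixed, took the 5 highest places for Espn, Xirp2, Fscn2, Triobp and Eps8l2 and the 4 highest for Espnl.

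Pls1, Eps8 and the actins were used more widely. Pls1 was led by striolar type I HCs at 802 ± 95.8 CPM, but vestibular supporting-cell-like cells still held 465 ± 50.2 CPM, a range that stood clear below that of type II HCs and clear above that of OHCs, and cochlear ones held 157 ± 18.4 CPM. Eps8 was highest in an unnamed vestibular cluster led by the chemokine gene Ccl11 (194 ± 41.8 CPM) and in cochlear fibroblast-like cells (162 ± 25.8 CPM), whose ranges overlapped with that of non-striolar type I HCs (152 ± 32.1 CPM). Actb was highest in vestibular granulocyte-like cells (5768 ± 1125 CPM) and cochlear macrophage-like cells (5447 ± 2029 CPM), and no HC class was among its top 5. Actg1 was highest in a small unnamed cochlear cluster led by Mmp12 (2251 ± 1340.4 CPM), again with no HC class among the top 5. Of the 44 steps between neighbours in these orders, 40 to 44 had overlapping ranges, depending on the gene, so most neighbours do not differ beyond their spread. Espn had a UMI in 97.0% of vHCs and 85.6% of cHCs against 8.52% and 1.29% of the macrophage-like cells of the same organs, at median depths of 4045 and 3463 UMIs against 2766 and 2398. Thinned to 1000 UMIs a cell, a depth that all kept cells had, the shares for Espn were 86.3%, 58.2%, 3.57% and 0.517%.

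**Figure D1:**
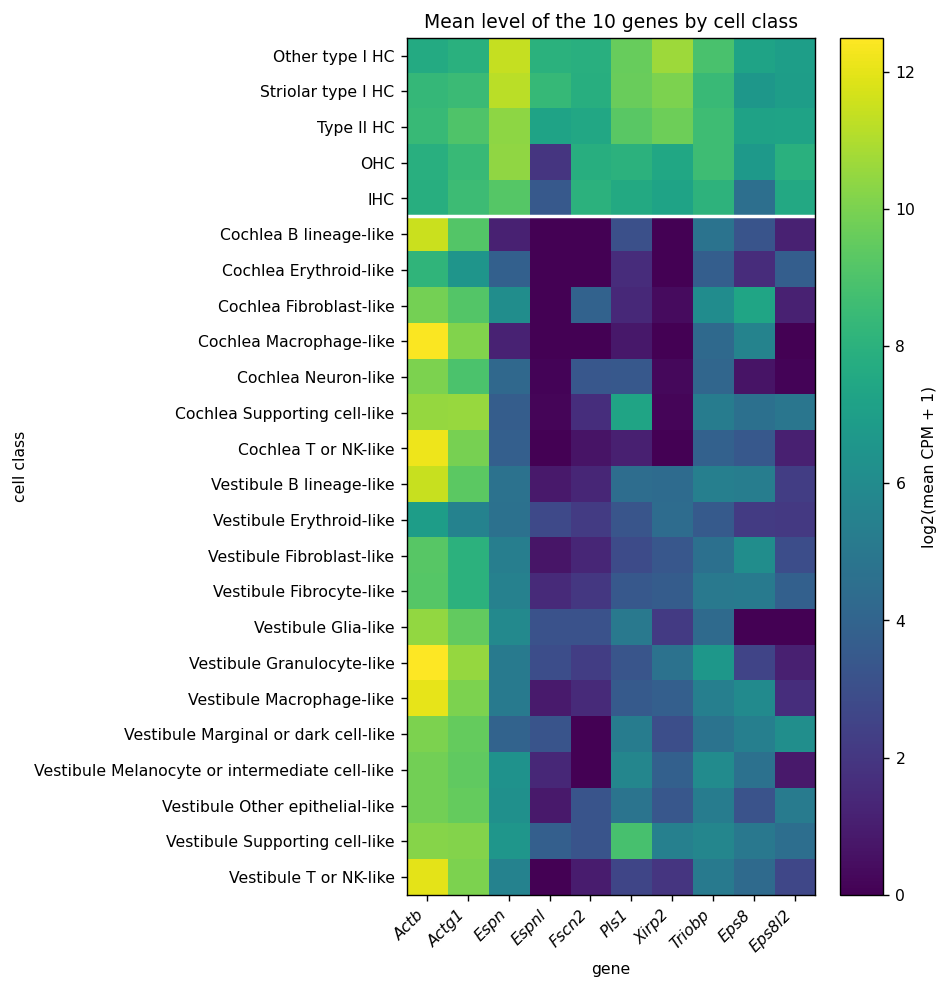
Mean level of each of the 10 genes (columns) in each named class (rows), as the colour of log2(mean CPM + 1) over libraries. Espn and Xirp2 reach their highest means, 2663 and 1605 CPM, in non-striolar type I HCs, while Actb and Actg1 are brightest outside the HCs.

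The genes whose class means followed those of a member most closely were sought among 16277 genes by the correlation of log2(CPM + 1) across the 45 classes, which share libraries and cells with each other, so the values are descriptions. For Xirp2 they were Ptprq (r = 0.98), Cacna2d4 (r = 0.95) and Loxhd1 (r = 0.95). For Fscn2 they were Kcna10 (r = 0.93), Plscr5 (r = 0.92) and Gpr152 (r = 0.92), and for Espn Bdnf (r = 0.90), Hsd17b7 (r = 0.89) and Pcsk5 (r = 0.88). Espnl was followed by 1700012P22Rik (r = 0.92), Ppp1r32 (r = 0.91) and Cfap43 (r = 0.91), Triobp by Palm3 (r = 0.88) and Grxcr1 (r = 0.87) and Pls1 by Rph3al (r = 0.88), Cdkl2 (r = 0.88) and Ccdc68 (r = 0.87). The closest to Eps8l2 were Ccdc68 (r = 0.87), Cgn (r = 0.86) and Stard10 (r = 0.86), and those closest to Actb were Pfn1 (r = 0.95), Tpm3 (r = 0.91) and Ppp1ca (r = 0.90). Actg1 was followed by Pak2 (r = 0.89), Lamtor4 (r = 0.84) and Capza2 (r = 0.82). For Eps8 the highest values were low, at Ralgps1 (r = 0.65), AU041133 (r = 0.65) and Polm (r = 0.63).

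The organs differed in the crosslinker set of their HCs. Against vHCs, cHCs had less Espnl, Xirp2, Pls1, Eps8 and Espn and more Eps8l2, while Fscn2, Triobp, Actb and Actg1 did not pass the test. UMIs were summed over the cHCs or vHCs of a library and tested with edgeR's quasi-likelihood test. All 10 members passed its filter on low counts, and 6 were called at an adjusted p under 0.05, 1 higher and 5 lower in cHCs, where 30.8% of the 7676 genes tested were called, 12.7% higher and 18.1% lower. The cells of the organs came from separate libraries, so that organ and library preparation cannot be told apart.

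Of the espins, Espn stood at 966, 847, 933 and 759 CPM in the cHCs of replicates 1, 3, 4 and 5 and at 2595, 2250.4, 2674 and 1904 CPM in the vHCs. The highest cochlear library lay well below the lowest vestibular one, and Espn was 2.63-fold lower in cHCs, a difference of -1.40 ± 0.23 (SE) on the log2 scale (edgeR adjusted p = 3.6e-05). Against type II HCs alone the difference was -0.51 (adjusted p = 0.0764) and was not called. OHCs had more Espn than IHCs (below), and in replicates 3, 4 and 5 the cHC value lay closer to that of the IHCs. Espnl was nearly without counts in the cochlea, with 0, 3, 1 and 1 UMIs, or 0, 6.58, 9.52 and 7.82 CPM, against 363, 218, 228 and 166 CPM in vHCs. Its difference of -5.12 ± 0.46 (SE) on the log2 scale (edgeR adjusted p = 7.5e-09) was the largest of the members. A UMI of Espnl was found in 2.61% of cHCs and 54.0% of vHCs, against 0% of 387 cochlear macrophage-like cells (a limit of 0.775% with a UMI) and 0.824% of the vestibular ones, at median depths of 3463, 4045, 2398 and 2766 UMIs.

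The other crosslinkers went apart. Pls1 was at 374, 217, 171 and 211 CPM in cHCs and 755, 689, 733 and 817 CPM in vHCs, without overlap, and 3.08-fold lower in cHCs, by -1.62 ± 0.24 (SE) on the log2 scale (edgeR adjusted p = 1.1e-05). Fscn2 was not called, at 289.8, 243, 276 and 227 CPM and 248, 237, 229 and 177 CPM. Its ranges overlapped, and the difference was 0.24 on the log2 scale (interval -0.17 to 0.65, edgeR adjusted p = 0.414). Against type II HCs alone Fscn2 was called higher in cHCs (0.60, adjusted p = 0.0479). Triobp, the rootlet bundler, ran from 197 to 507 CPM in cHCs (507, 197, 257 and 399 CPM) and was 553, 408, 428 and 399.7 CPM in vHCs. The spread in the cochlea was wide, and the difference of -0.44 on the log2 scale (interval -0.96 to 0.078, edgeR adjusted p = 0.202) was not called. It was called without replicate 1 (-0.59, adjusted p = 0.0212) and for IHCs alone (-0.79, adjusted p = 0.0048). Xirp2 was 8.77-fold lower in cHCs, at 72.4, 179.8, 143 and 172 CPM against 1512, 1409, 1259 and 1288 CPM, a difference of -3.13 ± 0.27 (SE) on the log2 scale (edgeR adjusted p = 3.7e-09). The ranges were far apart, and the share of cells with a UMI of Xirp2 was 37.3% in cHCs and 94.6% in vHCs, against 0% of the 387 cochlear (limit 0.775%) and 2.47% of the vestibular macrophage-like cells.

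The tip proteins moved in opposite directions. Eps8 was at 84.5, 28.5, 57.1 and 54.7 CPM in cHCs and 112, 133, 172 and 159 CPM in vHCs, without overlap, and differed by -1.62 ± 0.30 (SE) on the log2 scale (edgeR adjusted p = 1.5e-04). With OHCs alone the difference was -0.66 (adjusted p = 0.149), and with IHCs alone -2.70 (adjusted p = 2.5e-07). Eps8l2 was called higher in cHCs, 1.70-fold, at 289.8, 182, 200.0 and 203 CPM against 186, 102, 122 and 108 CPM, a difference of 0.77 ± 0.23 (SE) on the log2 scale (edgeR adjusted p = 0.0113). The ranges overlapped, and the call was lost without replicate 3, 4 or 5 (adjusted p = 0.0757, 0.0546 and 0.0761), where the difference stayed at 0.72 to 0.76. It was smaller and not called with HCs named cell by cell (0.48, adjusted p = 0.0921) and with the mixed clusters kept (0.53, adjusted p = 0.0568). Neither actin was called. Actb was at 302, 287, 219 and 172 CPM in cHCs and 287, 241, 236 and 219 CPM in vHCs, and differed by 0.067 on the log2 scale (interval -0.37 to 0.51, edgeR adjusted p = 0.857). Actg1 was at 483, 371, 362 and 321 CPM and 391, 311, 295 and 275 CPM, and differed by 0.30 on the log2 scale (interval -0.13 to 0.72, edgeR adjusted p = 0.304). It was called higher in cHCs when HCs were named cell by cell (0.62, adjusted p = 0.0335) and when the mixed clusters were kept (0.65, adjusted p = 0.0187). Markers of supporting cells summed to 38.1 to 96.6 CPM in cHCs and 95.6 to 157 CPM in vHCs over 8 genes, with Fgfr3 at 0 in both. Erythroid markers, which report haemoglobin RNA, summed to 0 to 7486 CPM and 99.3 to 2217 CPM over 5 genes. The part of either in these differences was not tested.

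**Figure D2:**
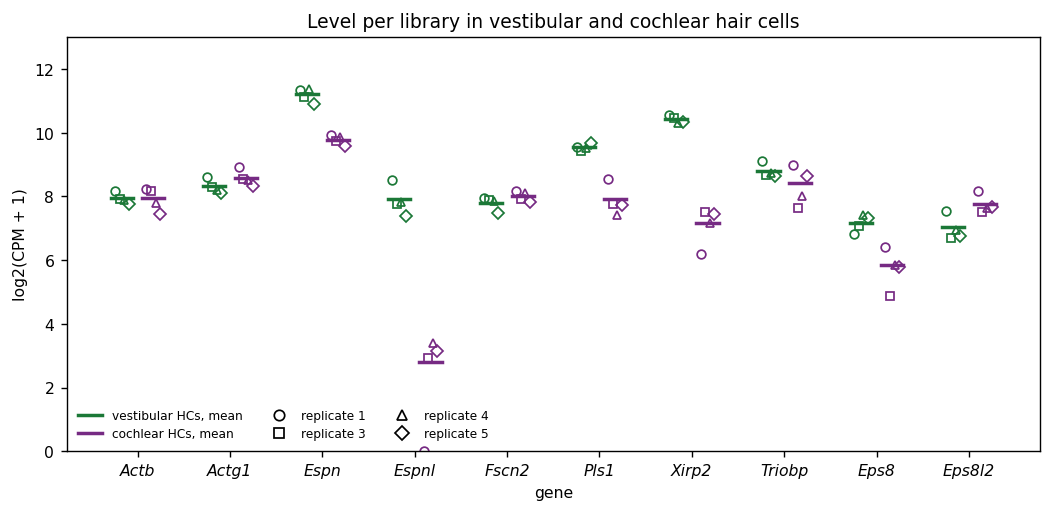
Level of each gene, as log2(CPM + 1), in the HCs of each library, with 1 symbol per replicate, vestibular HCs in green, cochlear HCs in purple and a line at the mean. The cochlear points of Espn, Espnl, Pls1, Xirp2 and Eps8 lie below every vestibular point, and those of Fscn2, Actb and Actg1 overlap with them.

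Genes related to the members were taken from lists by role, and values in parentheses are log2 differences that passed the test. All 4 listed genes of the Eps8 tip complex were tested, and 3 were higher in cHCs: Whrn (1.59), the scaffold whirlin, Gpsm2 (1.46) and Gnai3 (0.83), which belong to a polarity module that travels with Eps8. The Whrn counts of the cHCs came almost all from IHCs, with 61 UMIs in the IHC libraries tested below and 1 UMI in all OHCs. The median difference of the list was 1.15 on the log2 scale against -0.065 over all genes. Among paralogs and other bundlers 3 of 13 passed the filter and all were higher in cHCs. Lcp1, which encodes the leukocyte plastin related to Pls1, was at 193, 116, 76.2 and 78.2 CPM in cHCs against 3 UMIs in all vHCs, a ratio of 278 (exact 95% counting interval 92.2 to 1376). Lcp1 is also a gene of leukocytes, and the 6 macrophage markers summed to 0 to 9.52 CPM in cHCs, where 4 of them (C1qa, C1qb, C1qc and Csf1r) were at 0 UMIs while Cx3cr1 and Cd68 were detected, against 4.97 to 11.8 CPM in vHCs. Granulocyte markers summed to 0 to 36.2 CPM in cHCs and 3.72 to 50.7 CPM in vHCs, and T or NK markers to 0 and 0.733 to 1.86 CPM. B-lineage markers summed to 352 to 508 CPM and 402 to 554 CPM, with Cd79a, Cd79b, Ms4a1 and Vpreb3 at 0 UMIs in cHCs. The part of leukocyte RNA in the Lcp1 result was not tested. The actin crosslinkers Actn1 (2.07) and Actn4 (1.01) were higher too. Capping, pointed-end and elongation genes split, with 4 higher and 2 lower of 12 tested (median 0.057). Lmod3, an actin nucleator and one of the OHC markers, was at 0 UMIs in vHCs and at least 214-fold higher in cHCs (a floor of 3 UMIs over the group against the summed UMIs of the other), the pointed-end cappers Tmod2 (3.45) and Tmod3 (1.18) were higher, and Gsn (-1.99), the severing protein gelsolin, and Twf1 (-0.59) were lower. Of 10 monomer-binding and disassembly genes, 2 were higher, Tmsb10 (1.88) and Cap2 (1.26), and 1 lower, Wdr1 (-1.25) (median 0.28). Of 8 tested genes of the stereocilia base and taper, Grxcr2 (0.83) was higher and Ptprq (-2.15), Elmod1 (-1.19) and Pjvk (-0.64) were lower (median -0.22).

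Within the vestibule, type I HCs had more of the crosslinking and bundle genes Espn, Espnl and Xirp2 than type II HCs and less of both actins. The 5 calls, 3 higher and 2 lower in type I HCs, compare with 17.5% of 8019 genes tested that were called (8.19% higher, 9.32% lower), and all 10 members passed the filter. The types were named from clusters of these cells in which the members were not used, and both types of a number came from 1 library. With that pairing as a block 8 members were called, the added ones being Fscn2 (adjusted p = 0.00101), Pls1 (adjusted p = 9.5e-04) and Triobp (adjusted p = 0.0247), all higher in type I HCs, and 24.4% of all genes were called with it. Without the block, Fscn2 was also called with no filter (adjusted p = 0.0188), without replicate 1 (0.036) and with types named cell by cell (0.00334), Pls1 with the DESeq2 Wald test (0.0267) and Triobp with types named cell by cell (0.00241).

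Espn was at 2860.4, 2491, 2931 and 2129 CPM in type I HCs and 1504, 1175, 1454 and 1157 CPM in type II HCs, so that even the lowest type I library was above the highest type II library. The difference was 1.06 ± 0.17 (SE) on the log2 scale (edgeR adjusted p = 4.1e-05), or 2.09-fold. Espnl was higher by 0.94 ± 0.22 (SE) on the log2 scale (edgeR adjusted p = 0.00335), at 392, 234, 248 and 189.9 CPM against 241, 144, 132 and 88.8 CPM. Its ranges overlapped, but within each library the type I value was above the type II value. Xirp2 was higher without overlap, at 1673, 1519, 1363 and 1422 CPM against 850.4, 918, 768 and 844 CPM, by 0.90 ± 0.16 (SE) on the log2 scale (edgeR adjusted p = 1.5e-04). Of the genes added by the block, Fscn2 was at 253, 249, 238 and 195 CPM and 228, 184, 189 and 121 CPM, a difference of 0.48 on the log2 scale (interval 0.13 to 0.83, edgeR adjusted p = 0.0535). Pls1 was at 783, 721, 741 and 878 CPM and 641, 546, 697 and 615 CPM, which do not overlap, a difference of 0.41 on the log2 scale (interval 0.092 to 0.72, edgeR adjusted p = 0.0707). Triobp was at 557, 410.4, 453 and 418 CPM and 533, 396, 311 and 339 CPM, a difference of 0.31 on the log2 scale (interval -0.030 to 0.66, edgeR adjusted p = 0.244). All 3 were higher in type I HCs in 4 of 4 libraries.

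The tip proteins showed no call. Eps8 was at 111, 134, 183 and 138 CPM in type I HCs and 114, 128, 118 and 228 CPM in type II HCs, where replicate 5 stood apart, and the difference was 0.014 on the log2 scale (interval -0.41 to 0.44, edgeR adjusted p = 0.985). Eps8l2 was at 184, 95.4, 121 and 97.3 CPM and 197, 131, 125 and 143 CPM, a difference of -0.18 on the log2 scale (interval -0.59 to 0.23, edgeR adjusted p = 0.657). The actins were lower in type I HCs. Actg1 was at 316, 276, 249.9 and 214 CPM against 698, 465, 507 and 479 CPM, without overlap, and differed by -0.92 ± 0.16 (SE) on the log2 scale (edgeR adjusted p = 1.0e-04). Actb was at 236, 231, 222 and 194 CPM against 495, 286, 300.1 and 301 CPM, also without overlap, and differed by -0.52 ± 0.16 (SE) on the log2 scale (edgeR adjusted p = 0.0269). The Actb call was lost when any 1 replicate was left out (adjusted p from 0.0532 to 0.101) and without the filter (0.119). Supporting cells have far more of both actins (below), and their 8 markers summed to 43.2 to 104 CPM in type I and 244 to 411 CPM in type II HCs, with Fgfr3 at 0 in both. Their part in the actin result was not tested.

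Among the listed genes, 3 of 8 base and taper genes were higher in type I HCs, Ptprq (1.16), Pjvk (1.15) and Clic5 (0.46), and none lower, with a list median of 0.35 against 0.020 over all genes. In the tip complex Myo15 (0.82), the motor that carries Eps8, was higher and Gpsm2 (-0.82) lower (median 0.099). Lower in type I HCs were also Tmod1 (-2.40) and Gsn (-1.04) among 11 capping and elongation genes (median -0.11), Cap2 (-1.33) among 10 monomer and disassembly genes (median -0.15) and Actn4 (-0.70), 1 of 2 bundlers tested (median -0.32).

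Type I HCs named from markers of the striola differed from the other type I HCs in the opposite sense for the actins. The striola is the central strip of the maculae, but the libraries held whole vestibular organs. The place of these cells was not measured, so cells from outside the maculae may be among them. The 247 striolar-like cells had less Xirp2, Eps8 and Triobp and more Actb and Actg1, 5 of 10 members called where 9.24% of 6864 genes were (4.63% higher, 4.6% lower). Xirp2 was at 1106, 1043, 983 and 988 CPM in striolar and 1819.7, 1609, 1438 and 1552 CPM in other type I HCs, without overlap, a difference of -0.67 ± 0.16 (SE) on the log2 scale (edgeR adjusted p = 0.00526). Triobp was at 414, 337, 378 and 285 CPM and 594, 424, 468 and 458 CPM, where the ranges only just cleared each other, a difference of -0.50 ± 0.16 (SE) on the log2 scale (edgeR adjusted p = 0.0494). Eps8 was at 82.8, 98.1, 123 and 86.8 CPM and 118, 141, 195 and 154 CPM, overlapping between libraries but lower in striolar cells in 4 of 4, a difference of -0.66 ± 0.20 (SE) on the log2 scale (edgeR adjusted p = 0.0322). Actb was at 376, 307, 268 and 309.9 CPM against 200.0, 217, 213 and 159 CPM, without overlap, a difference of 0.63 ± 0.16 (SE) on the log2 scale (edgeR adjusted p = 0.0101). Actg1 was at 444, 384, 341 and 273 CPM against 284, 256, 232 and 196 CPM, overlapping, a difference of 0.54 ± 0.17 (SE) on the log2 scale (edgeR adjusted p = 0.039). The calls for Eps8, Triobp and the actins were lost when some libraries were left out, down to 1 call (Xirp2) without replicate 3 or without replicate 5. With all libraries kept, Triobp was also lost with DESeq2 size factors (adjusted p = 0.0517), at clustering resolution 1.5 (0.0504) and with the mean of replicates 1 and 2 (0.0585), Eps8 with the DESeq2 Wald test (0.0635) and Actg1 with no filter (0.0983).

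The bundlers were closer in the 2 groups of type I HCs. Espnl was at 452, 339, 300.2 and 236 CPM in striolar and 377, 215, 238 and 176 CPM in other type I HCs, higher in 4 of 4 libraries, with a difference of 0.37 on the log2 scale (interval -0.045 to 0.79, edgeR adjusted p = 0.342) that was called only with the library as a block (0.43, adjusted p = 9.5e-04). Espn differed by -0.22 on the log2 scale (interval -0.58 to 0.13, edgeR adjusted p = 0.566) and was called lower with the block (-0.20, adjusted p = 0.0267), at 2408, 2404, 2319.9 and 2169.6 CPM against 2977, 2508, 3052 and 2116 CPM. In replicate 5 alone the striolar value of Espn was the higher one. Fscn2 differed by -0.075 on the log2 scale (interval -0.40 to 0.25, edgeR adjusted p = 0.879), Pls1 by 0.016 on the log2 scale (interval -0.30 to 0.34, edgeR adjusted p = 0.978) and Eps8l2 by -0.032 on the log2 scale (interval -0.49 to 0.42, edgeR adjusted p = 0.968). With the block 7 members were called, and 17.1% of all genes. Erythroid markers summed to 75.3 to 256 CPM in striolar and 109 to 1884 CPM in other type I HCs over 5 genes, and supporting-cell markers to 15.1 to 132 CPM and 50.5 to 98.3 CPM, and their part was not tested. Among the listed genes Gsn (-2.76) was lower and Tmod2 (1.08), Twf1 (0.54) and Twf2 (0.49) higher of 11 capping genes (median 0.30 against 0.0037 over all genes), Grxcr2 (1.26) was higher of 8 base and taper genes (median -0.18) and Tmsb10 (1.21) of 9 monomer genes (median 0.15). None of 4 tip-complex genes (median -0.22) and neither direction for the 1 tested bundler (0.14) was called.

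In the cochlea, OHCs had more Espn than IHCs, and the other members that could be tested did not pass. Replicate 1 held 2 IHCs and was left out for them, so that 4 libraries of OHCs (24, 32, 8 and 14 cells) stood against 3 of IHCs (49, 6 and 18 cells). The filter left 1521 genes, 32.3% of which were called (17.2% higher, 15.1% lower), and of the 8 members among them 1 was called, as higher. Espn was at 970.4, 1439, 1896 and 1251 CPM in OHCs and 704, 593 and 471 CPM in IHCs, without overlap, a difference of 1.24 ± 0.26 (SE) on the log2 scale (edgeR adjusted p = 4.1e-04). Without the filter it was 0.93 (adjusted p = 0.0625). Eps8 fell below the filter, with 95.7, 68.0, 182 and 84.8 CPM in OHCs and 19.0, 12.9 and 37.2 CPM in IHCs. These ranges do not overlap, and a fit with no filter gave 1.85 ± 0.61 (SE) on the log2 scale (edgeR adjusted p = 0.0431, 13185 genes). Espnl also fell below it, with 0, 1, 0 and 0 UMIs in OHCs and 2, 1 and 1 UMIs in IHCs, too few for a fold. In the 7 other tested members the ranges overlapped, with differences of -0.039 on the log2 scale (interval -0.65 to 0.57, edgeR adjusted p = 0.936) for Fscn2, 0.51 on the log2 scale (interval -0.14 to 1.16, edgeR adjusted p = 0.245) for Pls1, 0.67 on the log2 scale (interval -0.035 to 1.37, edgeR adjusted p = 0.144) for Triobp and 0.18 on the log2 scale (interval -0.54 to 0.90, edgeR adjusted p = 0.747) for Xirp2. For Eps8l2 it was 0.46 on the log2 scale (interval -0.19 to 1.10, edgeR adjusted p = 0.295), for Actb 0.12 on the log2 scale (interval -0.52 to 0.75, edgeR adjusted p = 0.812) and for Actg1 0.015 on the log2 scale (interval -0.58 to 0.61, edgeR adjusted p = 0.977). A difference of 1 log2 unit lies inside those of Pls1, Eps8l2 and Triobp.

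The depth of the classes differed, with a median of 2644 UMIs per OHC, while the IHCs joined 44 cells with a median of 10366 and 31 cells with a median of 1778 UMIs. Of the partners of Eps8, the motor gene Myo15 was higher in OHCs (2.09, adjusted p = 6.7e-06), and whirlin went the other way. Whrn, named after its values were seen, had 1 UMI in all OHCs against 41, 12 and 8 UMIs in the IHC libraries, a ratio of 27.4 (exact 95% counting interval 4.73 to 1098) in favour of IHCs. Actn4 (1.23) was the 1 bundler tested and was higher in OHCs. Of the base and taper genes, Clic5 (1.58) and Grxcr1 (1.45) were higher and Pjvk (-0.78) lower of 7 tested (median 0.52 against -0.024 over all genes). Tmod2 (-1.31) was lower of 4 capping genes (median -0.36). Among these Lmod3, one of the listed OHC markers, was at least 47.6-fold higher by the 3 IHC libraries used, which held 0 UMIs. The 2 IHCs of replicate 1 held 3, however. Neither of 2 monomer genes was called (median 0.33).

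**Figure D3:**
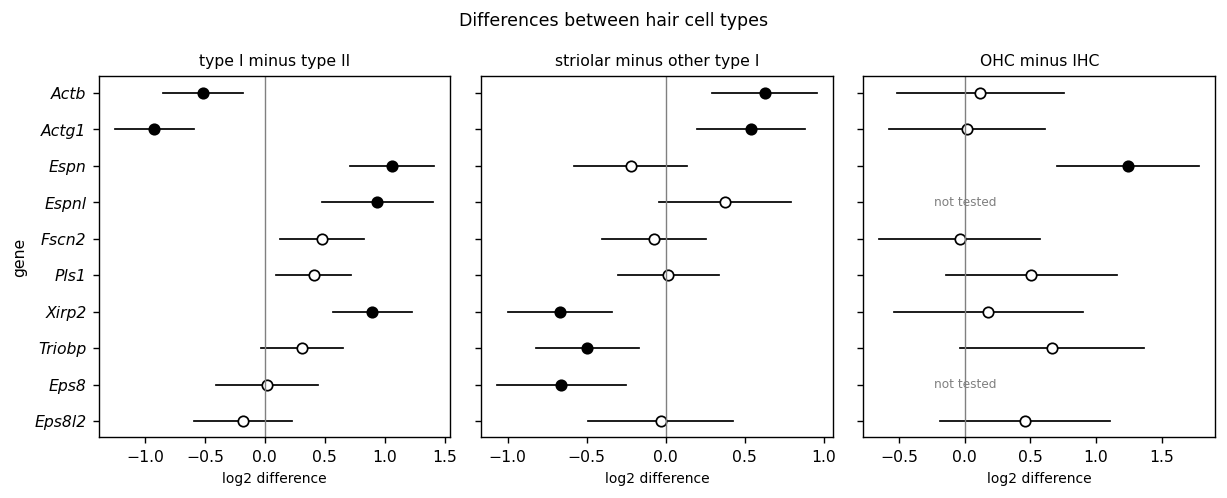
Log2 difference (x axis) of each gene (y axis) for type I minus type II HCs, striolar minus other type I HCs and OHCs minus IHCs, 1 panel each, with bars for the 95% interval and filled points for calls. The Espn point is right of 0 and filled in the first and the last panel, and both actins lie left of 0 in the first panel and right of 0 in the middle one.

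HCs were set against supporting-cell-like cells, the epithelial cells that surround them. In the vestibule all 10 members were called, 8 higher and both actins lower in vHCs, where 58.7% of 9260 genes were called (29.3% higher, 29.4% lower). Xirp2 was at 43.5, 57.0, 33.4 and 36.3 CPM in supporting cells, which is 26.4-fold under the vHCs, a difference of 4.72 ± 0.24 (SE) on the log2 scale (edgeR adjusted p = 8.6e-15). Espn was at 117, 109.5, 100.2 and 51.8 CPM in supporting cells and differed by 4.38 ± 0.25 (SE) on the log2 scale (edgeR adjusted p = 6.5e-14). Espnl was at 32.7, 15.6, 2.23 and 0 CPM and Fscn2 at 5.44, 19.0, 8.90 and 0 CPM. Both ranges reach 0 in supporting cells and stay far below the vHCs, with differences of 3.88 ± 0.35 (SE) on the log2 scale (edgeR adjusted p = 5.4e-10) and 4.04 ± 0.30 (SE) on the log2 scale (edgeR adjusted p = 9.7e-12). Triobp was at 76.2, 48.0, 60.1 and 25.9 CPM and higher in vHCs by 2.83 ± 0.21 (SE) on the log2 scale (edgeR adjusted p = 1.2e-11). The tip proteins followed, Eps8 at 19.1, 30.2, 42.3 and 31.1 CPM in supporting cells with a difference of 2.02 ± 0.24 (SE) on the log2 scale (edgeR adjusted p = 5.3e-08), and Eps8l2 at 49.0, 15.6, 13.4 and 10.4 CPM with 2.35 ± 0.29 (SE) on the log2 scale (edgeR adjusted p = 1.4e-07). Pls1 had the smallest difference of the 8, 0.50 ± 0.18 (SE) on the log2 scale (edgeR adjusted p = 0.0181), and supporting cells held 463, 415, 447 and 533 CPM. This call was lost without replicate 3 (adjusted p = 0.0925). The actins were far higher in supporting cells, Actb at 1407, 1098, 1055 and 1284 CPM and Actg1 at 1247, 1153, 1122 and 1103 CPM, with differences of -2.50 ± 0.19 (SE) on the log2 scale (edgeR adjusted p = 1.3e-11) and -2.07 ± 0.18 (SE) on the log2 scale (edgeR adjusted p = 3.2e-10).

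The cochlea was tested in the same way, with 9 members past the filter and 7 called, 5 higher and 2 lower in cHCs, against 45.5% of 5441 genes called (20.5% higher, 25% lower). Xirp2 had 1 UMI in all cochlear supporting cells and 125 in cHCs, a ratio of 488 (exact 95% counting interval 86.0 to 19418). Fscn2 was at 3.60, 0.564, 4.46 and 0 CPM in supporting cells and differed by 7.09 ± 0.43 (SE) on the log2 scale (edgeR adjusted p = 3.4e-10). Espn was at 3.60, 11.8, 20.1 and 11.7 CPM there and differed by 5.92 ± 0.33 (SE) on the log2 scale (edgeR adjusted p = 1.9e-10). Triobp stood at 25.2, 42.9, 46.9 and 35.1 CPM with a difference of 2.85 ± 0.31 (SE) on the log2 scale (edgeR adjusted p = 3.4e-07), and Eps8l2 at 43.2, 19.2, 33.5 and 19.5 CPM with 2.84 ± 0.29 (SE) on the log2 scale (edgeR adjusted p = 1.6e-07). Fscn2 had 4 UMIs in all cochlear supporting cells, and all of these ranges lie clear of the cHC ranges. Pls1 and Eps8 were not called. For Pls1 supporting cells held 177, 134, 165 and 152 CPM, and the difference was 0.44 on the log2 scale (interval -0.093 to 0.98, edgeR adjusted p = 0.17). Eps8 was at 18.0, 25.4, 33.5 and 15.6 CPM in supporting cells, and the difference was 0.76 on the log2 scale (interval -0.019 to 1.53, edgeR adjusted p = 0.105) for all cHCs but 1.76 (adjusted p = 6.5e-04) for OHCs alone. Espnl was below the filter, with 0, 3, 1 and 1 UMIs in cHCs and 0, 1, 0 and 0 UMIs in supporting cells. The actins were again higher in supporting cells, Actg1 at 1520.1, 1519.9, 1659 and 1415 CPM with a difference of -2.17 ± 0.25 (SE) on the log2 scale (edgeR adjusted p = 5.9e-07), and Actb at 2961, 946, 886 and 1065 CPM with -2.70 ± 0.37 (SE) on the log2 scale (edgeR adjusted p = 6.1e-06). The Actb value of replicate 1 stood apart from the others, and without that replicate the difference was -2.15 (adjusted p = 2.2e-09).

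Whether the HC to supporting cell difference itself differs between the organs was tested with an interaction term over the 4 groups. The term is the difference, HCs minus supporting cells, in the cochlea minus that in the vestibule. It was called for 4 members, where 18.8% of 8234 genes were, 8.53% with a positive and 10.3% with a negative term. The difference was larger in the cochlea for Espn, by 1.35 ± 0.40 (SE) on the log2 scale (edgeR adjusted p = 0.0172), for Fscn2, by 2.98 ± 0.73 (SE) on the log2 scale (edgeR adjusted p = 0.00394), and for Xirp2, by 3.23 ± 0.83 (SE) on the log2 scale (edgeR adjusted p = 0.00565). For Xirp2 the size rests on the 1 UMI in cochlear supporting cells, and for Fscn2 on the 4 UMIs there. It was smaller in the cochlea for Eps8, with -1.45 ± 0.44 (SE) on the log2 scale (edgeR adjusted p = 0.0202). The other members gave -0.25 on the log2 scale (interval -0.87 to 0.37, edgeR adjusted p = 0.632) for Pls1, 0.33 on the log2 scale (interval -0.61 to 1.26, edgeR adjusted p = 0.684) for Eps8l2 and -0.20 on the log2 scale (interval -0.98 to 0.59, edgeR adjusted p = 0.783) for Triobp. The actins gave -0.38 on the log2 scale (interval -1.20 to 0.45, edgeR adjusted p = 0.583) for Actb and -0.30 on the log2 scale (interval -0.90 to 0.29, edgeR adjusted p = 0.528) for Actg1. Espnl was fitted too and was not called, and its value is not given here as it rests on very few cochlear counts. Without replicate 3 none of the 4 was called, with values of 1.34 for Espn, 1.40 for Fscn2, 4.05 for Xirp2 and -0.81 for Eps8 (adjusted p from 0.0696 for Xirp2 to 0.487 for Eps8, edgeR, with 1700 of 8018 genes at an unadjusted p under 0.05). The scaling moved the median of all genes from -0.17 with TMM to -0.01 with DESeq2 size factors, and the calls over all genes from 702 higher and 844 lower to 861 and 674, with the same 4 members called.

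HC transcripts in supporting cells were unequal between the organs. Pou4f3, a transcription factor of HCs, had a UMI in 4.31% of vestibular and 0.242% of cochlear supporting cells, and Otof in 15.6% and 0.726%. In the macrophage-like cells of the vestibule and cochlea the share for Otof was 7.97% and 1.29%. Their part in the larger cochlear differences of Espn, Fscn2 and Xirp2 was not tested. Erythroid markers ran from 117 to 24727 CPM in vestibular and from 179.5 to 6835 CPM in cochlear supporting cells.

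**Figure D4:**
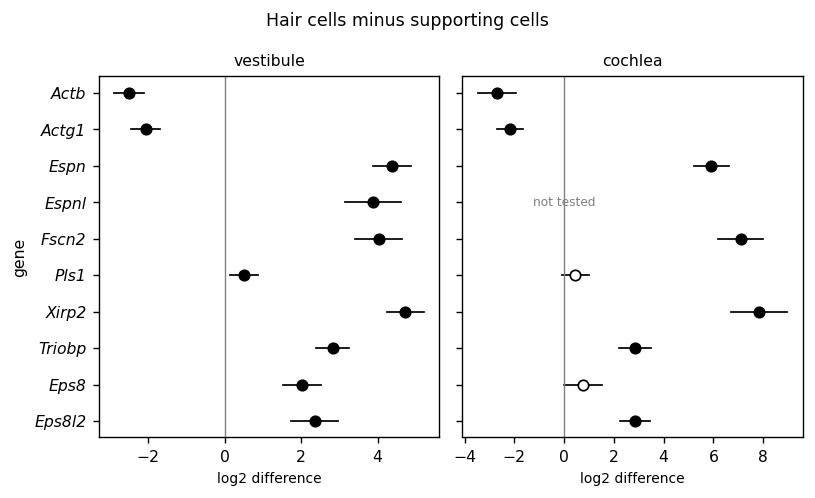
Log2 difference of each gene between HCs and supporting-cell-like cells (x axis) in the vestibule and in the cochlea, 1 panel each, with bars for the 95% interval and filled points for calls. The actins lie left of 0 in both organs and Espn, Fscn2, Xirp2, Eps8l2 and Triobp lie right of 0.

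The listed genes around the members split by role in both organs. Of 8 tested base and taper genes 7 were higher in vHCs and none lower (median 4.14 against 0.044 over all genes), led by Elmod1 (5.21), Grxcr2 (4.87) and Pjvk (4.62). In the cochlea it was 6 of 7, with Ptprq and Grxcr1 at 0 UMIs in supporting cells and at least 385-fold and 122-fold higher in cHCs, and Elmod1 with 2 UMIs there, a ratio of 673 (exact 95% counting interval 185 to 5580.4) (list median 8.32 with these genes at their bound, -0.022 over all genes). Monomer-binding and disassembly genes went the other way, with 1 higher and 7 lower of 10 in vHCs (median -1.54) and 0 higher and 8 lower of 9 in cHCs (median -1.97). Thymosin beta 4, from Tmsb4x, fell by 3.21 and 4.10 on the log2 scale and Tmsb10 by 2.70 and 3.68, and Pfn1 (-1.72) in the vestibule and Dstn (-2.36) in the cochlea were lower too, while Cap2 (2.66) was higher in vHCs. In the tip complex Myo15 (4.50) and Gpsm2 (2.02) were higher and Gnai3 (-1.78) lower in vHCs (median 1.34). In cHCs Gpsm2 (5.91) and Myo15, with 1 UMI in supporting cells and a ratio of 691 (exact 95% counting interval 122 to 27432), were higher and Gnai3 (-1.40) was lower (median 5.91).

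Of the 13 relatives of the bundlers, 4 were tested in each organ. In the vestibule all 4 were lower in vHCs (median -3.55), among them Fscn1, the broadly expressed fascin, at 1.45 CPM in vHCs and 118 CPM in supporting cells (-6.22), Pls3 (-3.61), a plastin, and Actn4 (-3.49). In the cochlea Pls3 (-2.16) and Actn4 (-1.78) were lower and Lcp1 (0.98) and Actn1 (1.70) higher in cHCs (median -0.40). Capping and elongation genes were mixed. Twf2, twinfilin 2, was higher in both organs (3.44 and 3.82), as was Baiap2l2 in the vestibule, at 0 UMIs in supporting cells and at least 12.7-fold higher in vHCs, and Lmod3 in the cochlea, with a ratio of 261 (exact 95% counting interval 45.3 to 10479). Tmod1 (-3.87 and -4.50), Gsn (-2.68 and -3.60) and Diaph1 (-2.01 and -1.60) were lower in both, giving 2 higher and 4 lower of 11 in vHCs (median -0.43) and 2 higher and 6 lower of 11 in cHCs (median -0.75). In the interaction, 3 of 4 tip-complex genes had a larger difference in the cochlea, Whrn at 6.38, Myo15 at 4.29 and Gpsm2 at 3.84. The term was positive too for 6 of 8 base and taper genes, among them Ptprq (6.97), and for 2 bundlers, Actn1 (3.47) and Actn4 (1.49). Actn4 was lower in HCs in both organs, and less so in the cochlea. Whrn and Myo15 had 1 UMI each in cochlear supporting cells and Ptprq had 0, so the sizes for these genes rest on near-empty counts. The term was negative for 3 of 9 monomer genes, Pfn2 (-1.29), Cfl2 (-1.19) and Dstn (-1.08). It was also negative for 2 of 12 capping genes, Gsn (-1.10) and Capza2 (-1.05). Gsn was lower in HCs in both organs, and more so in the cochlea.

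The balance between the 2 cytoplasmic actins was measured as the share of Actg1 among the UMIs of Actb and Actg1, which does not depend on the other transcripts of a cell, although the capture of the 2 transcripts may differ. The share was 61.5%, 56.3%, 62.3% and 65.1% in cHCs and 57.7%, 56.3%, 55.6% and 55.7% in vHCs. The difference of 4.99 percentage points did not pass (two-sided exact permutation test, p = 0.0571, with 0.0286 as the smallest possible). In type I HCs it was 57.3%, 54.4%, 53.0% and 52.5% and in type II HCs 58.5%, 61.9%, 62.8% and 61.4%, with no overlap and a difference of -6.89 points (two-sided exact permutation test, p = 0.0286, the smallest that 4 against 4 values allow). That test left out the pairing, as both types came from the same 4 libraries. With the library as a block the exact permutation p was 0.125, the smallest possible. Taken as a mean over cells the difference was -5.94 points (exact p = 0.114). Adjusted over these 2 comparisons the values are 0.0571 for both. Shares were 62.5% ± 4.99 (SD, n = 3) in IHCs and 59.1% ± 4.71 (SD, n = 4) in OHCs. Supporting cells were at 54.4% ± 14.1 in the cochlea and 49.0% ± 2.78 in the vestibule (SD, n = 4 each), and macrophage-like cells ran from 14.6% to 17.9% and from 12.7% to 23.0%. Replicate 1 was the lowest cochlear library in supporting cells (33.9%), in the mixed HCs set aside (36.1%) and in an unnamed cluster led by Epyc (30.7%). In OHCs it was the highest (64.4%).

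**Figure D5:**
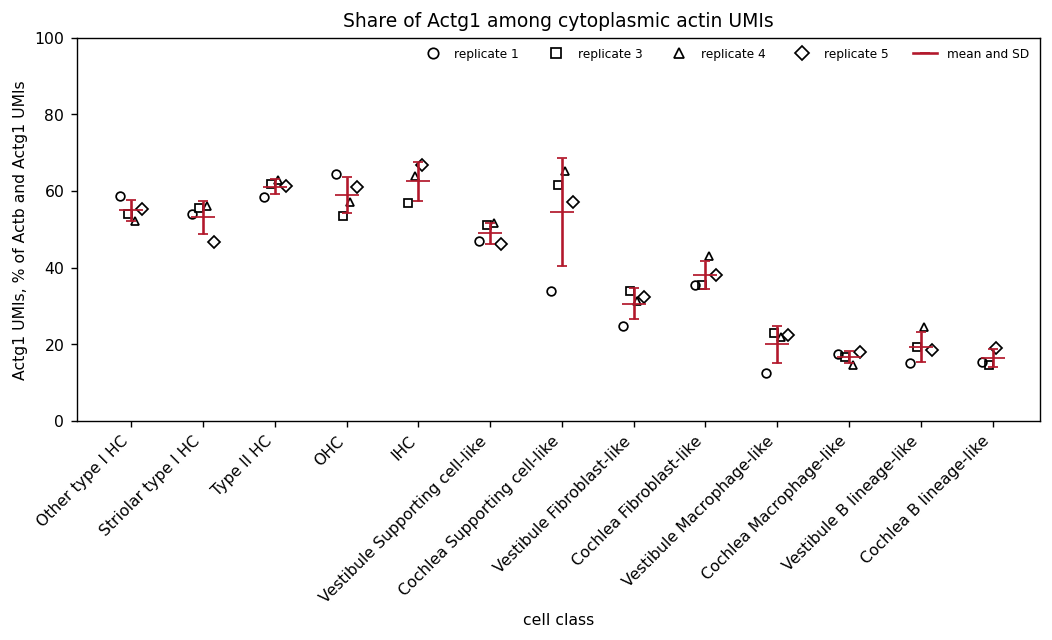
Share of Actg1 among the UMIs of Actb and Actg1, in percent, by cell class, with 1 symbol per library and red bars for the mean and SD. Type II HCs lie between 58.5% and 62.8%, macrophage-like cells lie below every HC class, and replicate 1 lies low in cochlear supporting cells.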

How the data were processed

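Epithelia of whole cochleae and vestibular organs were profiled as droplet 3′ libraries. The deposited values are the raw UMI count per gene and barcode, without normalization. The authors made them with Cell Ranger on mm10, with version 5.0.1 in the file headers of replicates 1 and 2, version 6.1.2 in the remaining headers and version 6.1.2 in the submitters' processing notes. Replicate 2 repeated replicate 1 (1313 of 1313 barcodes shared in the cochlea, 1633 of 1641 in the vestibule, otherwise at most 41) and was left out.

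Barcodes were kept from 200 genes and 1000 UMIs upward and below 25% mitochondrial UMIs. Each organ was clustered in Seurat 5.3.0 under R 4.3.3 (2000 variable genes, 30 components, resolution 1, and 0.5 for HCs alone). A class needed 3 enriched markers, as did striolar type I HCs. Other HC types were named by subcluster, type II where more cells held Sox2 than Adam11, and OHCs where more held Slc26a5 than Slc17a8. The remaining subclusters were named type I or IHCs, with no minimum of markers. An IHC subcluster of 31 cells had 0 IHC markers enriched over the other HCs, and a type II subcluster of 61 cells had 1 type II marker. Clusters that mixed HC and other markers were set aside by a rule made with the clusters in view. No doublet caller was run. Summed UMIs per class and library (5 or more cells) entered edgeR 4.0.16, with TMM factors, filterByExpr, its quasi-likelihood F test and p-values adjusted over all genes (Benjamini-Hochberg, threshold 0.05), a procedure that was checked on simulated counts. DESeq2 1.42.0 served as an alternative. An SE is the absolute log2 difference divided by the square root of F. Exact permutation tests compared the Actg1 shares. Intervals of counts are exact at 95% and, like the limit of 3 counts for a 0, cover counting error only. The p-values measure the spread between pooled libraries.

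All 10 members are named, and of each list up to 3 called genes with the largest change per direction, and per member the 3 genes of highest correlation. 1 of these genes is not reported here. The members, lists and tests were chosen with earlier results of these data known. Classes of 1 organ and number share a library and its mice, which pairs them (correlation of deviations 0.109 to 0.311, but 0.0088 for OHCs and IHCs of replicate 3). Between organs it was 0.037 to 0.121, and same-numbered libraries were not taken as paired.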

Additional observations from a re-analysis of the deposited data

Results flagged for a closer look

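In 8 of 94 groups of 4 libraries, 1 library stood apart from the other 3 by Dixon's criterion, which chance does in about 5% of groups. In type II HCs, Eps8 was at 228 CPM in replicate 5 against 114 to 128 CPM in the others, and Actb at 495 CPM in replicate 1 against 286 to 301 CPM. In OHCs, Pls1 was at 396 CPM in replicate 1 against 212 to 219 CPM, and Espnl at 11.3 CPM in replicate 3, which is 1 UMI, against 0. Eps8l2 in vestibular supporting cells was at 49.0 CPM in replicate 1 against 10.4 to 15.6 CPM. In cochlear supporting cells, Actb was at 2961 CPM in replicate 1 against 886 to 1065 CPM, and Espnl and Xirp2 were at 0.564 CPM each in replicate 3, again 1 UMI, against 0.

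The HC to supporting cell difference differed between the organs, by the interaction term, for Espn (1.35 on the log2 scale), Fscn2 (2.98), Xirp2 (3.23) and Eps8 (-1.45), larger in the cochlea for 3 of them and smaller for Eps8. The sizes for Fscn2 and Xirp2 rest on very few counts in cochlear supporting cells. No member of the 4 was called without replicate 3.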

How the results depend on the processing

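Of 814 values recomputed for the members and counts, 731 kept their direction and side of the threshold, 39 lost and 17 gained a call, and 27 changed sign, none of them called under the alternative. Counts of members called moved as follows. With the library as a replicate block, 8 members were called for type I against type II HCs. Leaving out 1 replicate gave 1 to 3 for striolar against other type I HCs and 0 to 4 for the difference between organs. The Actg1 share difference of type I and type II HCs was -5.94 points as a mean over cells, -8.77 to -5.89 points with 1 replicate left out (exact p = 0.1, the smallest possible) and -6.89 points with the replicate block (exact p = 0.125, the smallest possible). The block gave 7 for striolar against other type I HCs and changed no other count of members called. Values that changed sign were, on the log2 scale and with the setting in parentheses, for cochlear against vestibular HCs, Actb -0.044 (no filter on low counts), -0.0057 (OHCs alone), -0.36 (type II HCs alone) and -0.11 to 0.15 (1 replicate left out), Actg1 -0.40 (type II HCs alone), for type I against type II HCs, Eps8 -0.22 to 0.30 (1 replicate left out), Eps8l2 0.15 (types named per cell), for OHCs against IHCs, Xirp2 -0.12 (no filter on low counts), Actb -0.19 (no filter on low counts) and -0.0019 (without the IHC subcluster of low depth), Actg1 -0.29 (no filter on low counts), -0.29 (replicate block), -0.0089 (members and list genes kept in the clustering), -0.077 (without the IHC subcluster of low depth) and -0.27 to 0.11 (1 replicate left out), Fscn2 -0.15 to 0.083 (1 replicate left out), for striolar against other type I HCs, Pls1 -0.036 (no filter on low counts) and -0.074 to 0.051 (1 replicate left out), Eps8l2 0.055 (replicate block) and -0.23 to 0.099 (1 replicate left out), and for the difference between organs, Triobp 0.0068 (DESeq2 Wald test) and -0.42 to 0.32 (1 replicate left out), Actb -0.54 to 0.29 (1 replicate left out), Espnl -0.58 to 0.60 (1 replicate left out), Pls1 -0.22 to 0.0084 (1 replicate left out). Counts over all genes moved by more than 1.5 times in these cases: for cochlear against vestibular HCs 2365 genes became 1568 (without replicate 3) and 1346 (type II HCs alone), for type I against type II HCs 1404 genes became 859 (without replicate 3) and 2620 (types named per cell), for OHCs against IHCs 491 genes became 784 (no filter on low counts), for striolar against other type I HCs 634 genes became 400 (without replicate 3) and 1171 (replicate block), for cochlear HCs against cochlear supporting cells 2473 genes became 4103 (no filter on low counts), 1385 (without replicate 3) and 1559 (OHCs alone), and for the difference between organs 1546 genes became 664 (without replicate 3) and 986 (without replicate 5). OHCs alone, IHCs alone, type II HCs alone and the fit without the shallow IHC cells were added after seeing the data. The cochlear values rest on 14 to 81 cHCs in a library. The causes were not tested.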
